A study of Mus musculus with 15 samples.

Results

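Genes of mitosis and cytokinesis were followed in cells sorted from the kidneys of newborn mice on each of the first days after birth. The set held 55 listed genes, each matched by its symbol to a probe set of the array that names no other gene, and 54 of them were measured. Ccnb1 was the one listed gene for which the probe table used here gave no probe set with that symbol alone. All 54 passed the filter on low values, among 11885 genes that did so.

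All 15 arrays came from mice of strain CD-1 that carry the transgene Tg(Crym-EGFP)82Gsat, in which the regulatory region of Crym drives green fluorescent protein. Pups taken at E18.5 were raised by foster mothers, and no treatment was given. Kidneys were removed daily from the day of birth (P0) to postnatal day 4 (P4), with 3 pools of about 4 kidneys for each day. The labels call the cells of P0 to P3 cap mesenchyme, the nephron progenitors, and those of P4 renal vesicle, the first epithelial stage of the nephron, so that at P4 the label and the day cannot be told apart. The sort follows the reporter and not cell identity, which limits each group as a model of 1 cell type. Whether the pools of 1 day were from different litters is not stated, and the p-values then describe the spread between pools alone. In pooled cells fewer dividing cells and less RNA of a gene per cell cannot be told apart.

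Dividing cells make most of these transcripts late in the cycle, in G2 and M, and destroy many of the proteins as mitosis ends. Cdk1 with the A and B cyclins starts mitosis, the kinetochore and the spindle checkpoint hold sister chromatids until all are attached, and the anaphase-promoting complex then releases them. Kinesin motors and the chromosomal passenger complex shape the spindle and its midzone, where the actin ring that divides the cell is placed. Cap mesenchyme cells divide to renew themselves before they turn into nephrons, a process that in the mouse ends in the first days after birth.

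Many promoters of such genes are known to hold a cell cycle genes homology region (CHR), bound by the DREAM and MuvB complexes, and CCAAT boxes, bound by NF-Y. The RefSeq promoter table (build GRCm38.p6, 250 bases before to 50 bases after each start) held 47 of the 55 listed genes. A CHR (TTTGAA or TTCGAA, either strand) was found in the window of 36 of these 47 genes, 76.6%, against 21.7% of all 27025 genes in the table. A CCAAT box (CCAAT, either strand) was found in 34 of the 47, 72.3%, against 41.1% of all genes. Both were present in 31 of the 47, 66%, against 8.61%. Neither motif contains the other, and a match is only a description of the sequence. No CHR was found in the windows of Birc5, Ccnb1, Cenpe, Kif18a, Mad2l1, Mybl2, Nek2, Nuf2, Nusap1, Plk4 and Pttg1.

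The 150 bases before the start are printed for the mitotic kinase gene Cdk1, for the proliferation markers Top2a and Mki67, for Kif11, which had the smallest p between P1 and P2, and for Mybl2, whose order of days differed from that of the other genes. Each runs 5′ to 3′ on the strand of the gene, with CHR and CCAAT matches in capitals.
Cdk1, chr10:69352913-69353062, minus strand: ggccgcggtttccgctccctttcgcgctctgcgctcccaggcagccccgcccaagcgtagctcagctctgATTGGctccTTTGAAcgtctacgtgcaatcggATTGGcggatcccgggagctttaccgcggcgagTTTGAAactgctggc
Top2a, chr11:99024190-99024339, minus strand: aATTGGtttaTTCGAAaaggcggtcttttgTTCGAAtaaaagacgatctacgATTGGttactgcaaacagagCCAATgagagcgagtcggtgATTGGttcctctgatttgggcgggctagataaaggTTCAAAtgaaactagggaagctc
Mki67, chr7:135716380-135716529, minus strand: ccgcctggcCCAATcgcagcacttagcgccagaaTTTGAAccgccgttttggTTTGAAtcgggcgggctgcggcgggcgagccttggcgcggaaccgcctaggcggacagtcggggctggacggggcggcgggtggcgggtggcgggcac
Kif11, chr19:37376232-37376381, plus strand: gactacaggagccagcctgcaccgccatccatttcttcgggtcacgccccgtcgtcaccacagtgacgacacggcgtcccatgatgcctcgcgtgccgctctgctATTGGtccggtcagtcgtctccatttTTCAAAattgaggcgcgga
Mybl2, chr2:163054485-163054634, plus strand: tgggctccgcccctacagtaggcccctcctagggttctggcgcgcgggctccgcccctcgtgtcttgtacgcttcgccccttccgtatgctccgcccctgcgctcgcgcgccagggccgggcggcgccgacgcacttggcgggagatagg
Cdk1 holds its CHR matches at positions -71 and -15, counted from the base before the start as -1, each with a CCAAT box upstream. Kif11 has a single CHR at -19, on the opposite strand. In Cenpf and Kif23 the CHR lay just after the start, at position 3 in both. The window of Mybl2 held neither motif.

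The deposited values are log2 signals, and the medians of the arrays differed little (6.80 to 6.92). Their spread differed more. The interquartile range was 2.14 to 2.27 in the first replicates and 2.52 to 2.77 in all other pools. The first replicate of every day lay apart from the other replicates along the leading principal component, with 35.3% of the variance, so results are also given with the replicate number as a block where that alters a call, except in P4 versus P1, where replicate 3 of these days did not deviate together. The fit used 1 mean per day over all 15 arrays in limma, and Benjamini-Hochberg adjustment over 11885 genes. The label of the cells was checked against their markers. The 8 cap mesenchyme markers averaged 10.18 at P0, 10.05 at P1, 9.98 at P2, 9.02 at P3 and 7.68 at P4. The 8 renal vesicle markers averaged 7.76, 7.78, 8.47, 9.37 and 9.78 on the same days. The reporter's own gene Crym fell from 11.57 ± 0.22 (SD, n = 3) at P1 to 7.80 ± 0.16 at P4, and the progenitor factor Six2 from 10.89 ± 0.25 to 8.44 ± 0.29 (adjusted p = 4.6e-08 and 3.9e-06). Between P0 and P1, where the mitosis genes reached their low point, both marker lists moved by less than the spread of the pools.

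Of other cell types, all 6 stromal markers passed the filter on low values, with list means per pool of 8.40 to 8.68 at P0, 8.25 to 8.53 at P1, 8.12 to 8.39 at P2, 8.03 to 8.28 at P3 and 8.08 to 8.27 at P4. Passing were 3 of 6 ureteric bud, 4 of 5 proximal tubule, 1 of 3 measured podocyte, 2 of 3 measured erythroid, 1 of 6 macrophage and 0 of 6 endothelial markers. Their list means lay between 5.86 and 7.11 on all days, near or below the filter level of 6.86. Single markers nonetheless moved between the days compared. The ureteric bud marker Gata3 rose by 1.89 (SE 0.20) from P3 to P4 and by 1.92 (SE 0.20) from P1 to P4, and a second one, Krt8, was higher at P4 than at P0 (0.68, SE 0.18). The proximal tubule marker Lrp2 rose by 0.89 (SE 0.13) from P3 to P4 and by 0.59 (SE 0.13) from P1 to P4, and the podocyte marker Podxl by 0.70 (SE 0.18) from P1 to P4. The stromal markers Foxd1 and Meis1 fell by 1.27 (SE 0.18) and 0.89 (SE 0.18) from P1 to P4. In the same comparison 4 of the 6 stromal differences were positive, with a list median of 0.025. The macrophage marker Cd68 differed by -0.69 (SE 0.22, unadjusted p = 0.0078, adjusted p = 1.00) between P0 and P1, with every P1 pool below every P0 pool. The part of these cells in the results was not tested.

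The mitosis genes moved together, with a low point at P1. For each pool, the deviation of every gene from its own mean over 15 pools was averaged over the 54 genes. That score was -0.09 ± 0.19 (SD, n = 3 pools) at P0, -0.61 ± 0.20 at P1, 0.05 ± 0.22 at P2, 0.39 ± 0.07 at P3 and 0.26 ± 0.19 at P4. The 3 pools of P1 stood at -0.80, -0.64 and -0.40, below all 12 other pools, and in each of them 0 of the 54 genes was above its own mean. At P3 the pools stood at 0.32, 0.46 and 0.40, with 47, 53 and 50 genes above their means. The pools of P0 and P2 overlapped. P4 replicates 1 and 3, at 0.08 and 0.22, were below every P3 pool, whereas P4 replicate 2, at 0.46, was level with the highest of them.

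**Figure D1:**
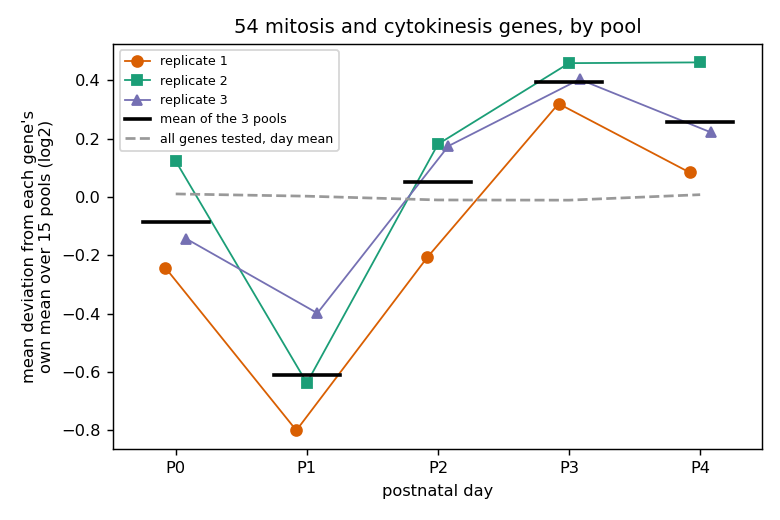
Mean deviation of the 54 mitosis and cytokinesis genes from each gene's own mean over 15 pools (log2, vertical axis) by postnatal day, with 1 point for each pool, coloured lines joining pools of the same replicate number, black bars for the mean of 3 pools and a dashed grey line for all 11885 genes tested. Each coloured line has its low point at P1, where the mean is -0.61, and the means are highest at P3 (0.39).

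Day by day the genes shared an order. The list was chosen with earlier results of these data known, so the shares below describe it and test nothing. P1 was the day of the lowest mean for 53 of the 54 genes, against 17.9% of all genes tested, and Mybl2, lowest at P0, was the exception. P3 was the highest day for 48 (18.8% of all genes) and P4 for the other 6, namely Kif23, Prc1, Cdc25b, Plk1, Aurka and Kif18b (26.5% of all genes). A mean at P1 below both neighbours, followed by a rise of the mean from P2 to P3, was seen in 53 genes (13.3% of all genes). The means rose at every step from P1 to P4 in 6 (7.74%). As a description across 15 pools that share arrays and days, the median correlation between pairs of the 54 genes was 0.84, and 0.91 after the mean of each replicate number was removed. Each gene's correlation with the mean of the others had a median of 0.96, and the lowest was 0.40.

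From P0 to P1 the genes were lower as a group, though none passed in the fit without a block. The median difference was -0.54 (log2), against 0.00 over all genes tested, with a range from -1.02 for Hmmr to 0.07 for Mybl2. In limma 0 of the 54 passed, as did 0% of all genes in the lower direction, while 36 had an unadjusted p under 0.05 and were lower, against 1.35% of all genes. In 32 genes every P1 pool lay below every P0 pool, against 2.78% of all genes. The smallest p belonged to Cenpf (-0.83, SE 0.14, adjusted p = 0.118), Cdc25c (-0.66, SE 0.12, adjusted p = 0.157) and Kif11 (-0.74, SE 0.14, adjusted p = 0.157). With the replicate number as a block, 7 fell, against 0.16% of all genes, and these were Cenpf, Cdc25c, Kif11, Cenpe, Kif14, Ccnb2 and Birc5, with adjusted p between 0.0203 and 0.0408. That block takes same-numbered pools as pairs, though those of replicates 2 and 3 were only weakly correlated between P0 and P1 (0.14 in both). Between pools of the same number, 53, 54 and 47 of the 54 were lower at P1 in replicates 1, 2 and 3, with medians of -0.56, -0.76 and -0.26. The difference was smallest in replicate 3. Quantile normalization gave 2 calls, beside 0.0253% of all genes in either direction.

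From P1 to P2 the genes were higher in every case. All 54 differences were positive, with a median of 0.70 against -0.02 over all genes and a range from 0.12 (Mybl2) to 1.11 (Prc1). The genes that rose in limma were 4, against 0.0589% of all genes. Kif11 rose by 0.91 (SE 0.14, adjusted p = 0.0258), Kif14 by 0.95 (SE 0.15, adjusted p = 0.0258), Cdc25c by 0.77 (SE 0.12, adjusted p = 0.0258) and Cenpf by 0.86 (SE 0.14, adjusted p = 0.0331). In 38 genes the pools did not overlap (4.43% of all genes). With the replicate number as a block 33 rose, among them the same 4, against 0.766% of all genes. Between same-numbered pools, 52, 54 and 54 of the 54 were higher at P2. The count was 0 without P1 replicate 1 or 2 or without any P2 replicate, and 10 without P3 replicate 3. It was 19 after quantile normalization, where 0.388% of all genes passed in either direction, against 0.0841% without it. It was 0 with arrays centred on their medians or with replicates 2 and 3 alone.

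From P2 to P3 the differences were smaller and again all positive, with a median of 0.33 against -0.01 over all genes. Without P2 replicate 1 the median was 0.19, and with replicates 2 and 3 alone it was 0.22, with 4 of the 54 differences negative. In limma 0 of the 54 passed, against 0.0757% of all genes, and 15 were higher at an unadjusted p under 0.05, against 2.73%. In 20 genes the pools did not overlap, against 5.05%. Kif14 (0.57, SE 0.15, adjusted p = 0.217), Cdc25c (0.43, SE 0.12, adjusted p = 0.264) and the checkpoint kinase gene Bub1b (0.65, SE 0.19, adjusted p = 0.373) had the smallest p. With the replicate number as a block, Kif14, Bub1b and Foxm1 rose, 3 of 54 against 0.799% of all genes. The number of genes higher at P3 in same-numbered pools was 53, 52 and 42.

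From P3 to P4, when the label turns to renal vesicle, the median difference was -0.14 against 0.01 over all genes, and 48 of the 54 differences were negative. That median is smaller than the spread between pools of a day (0.18), and it was -0.07 without P4 replicate 1 and -0.24 without P4 replicate 2. None of the 54 passed in limma, against 0.446% of all genes, and 2 were lower at an unadjusted p under 0.05, against 3.42%. Those were Kif14 (-0.49, SE 0.15, adjusted p = 0.184) and Cdc25c (-0.27, SE 0.12, adjusted p = 0.599), followed by Bub1b (-0.37, SE 0.19, adjusted p = 0.761). In 4 genes all P4 pools were below all P3 pools, a share of 7.41% beside 4.16% of all genes. With the replicate number as a block Kif14 fell (adjusted p = 0.0107), 1 of 54 against 1.25% of all genes. The replicates differed here. At P4, 52 of the 54 genes were lower than at P3 in replicate 1 and 41 in replicate 3, but 25 in replicate 2.

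P4 against P1 ran from the low day past P3, where the mean score was highest (0.39, against 0.26 at P4). It also crosses the change of label to renal vesicle, so day and label cannot be told apart here. P3 against P1 was not fitted. The genes that rose were 38 of the 54, against 3.88% of all genes, and none fell. The median difference was 0.91 against 0.00 over all genes, and the range ran from 0.27 (Mybl2) to 1.50 (Prc1). In 46 genes every P4 pool was above every P1 pool (9.6% of all genes), and in pools of the same number all 54 genes were higher at P4 in each of the 3 replicates. The count was 23 without P4 replicate 2 and 25 without P1 replicate 2, and between 31 and 39 without any of the other pools but P1 replicate 1 (26). Replicates 2 and 3 alone gave 42 calls, of which 33 were shared. In either direction 6.49% of all genes then passed, against 6.27% with all pools. The calls named by role below are from the fit with all pools and without a block.

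P4 against P0 left out the low day. Kif23 rose by 0.53 (SE 0.13, adjusted p = 0.0266), 1 of 54 against 3.18% of all genes, a share below the background. The median difference was still 0.33 against 0.00, 53 of 54 differences were positive, and 14 genes had pools that did not overlap (7.52% of all genes). With the replicate number as a block 12 rose, Kif23 among them, against 5.69% of all genes. The count was 0 without P0 replicate 1 or 3 or P4 replicate 2, 3 without P0 replicate 2, and 2 without P3 replicate 3 or P4 replicate 1. It was 7 after quantile normalization, where 6.63% of all genes passed in either direction, against 5.63% without it. It was 0 with arrays centred on their medians or with these 2 days fitted alone. These comparisons share pools, so their counts are not separate evidence.

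**Figure D2:**
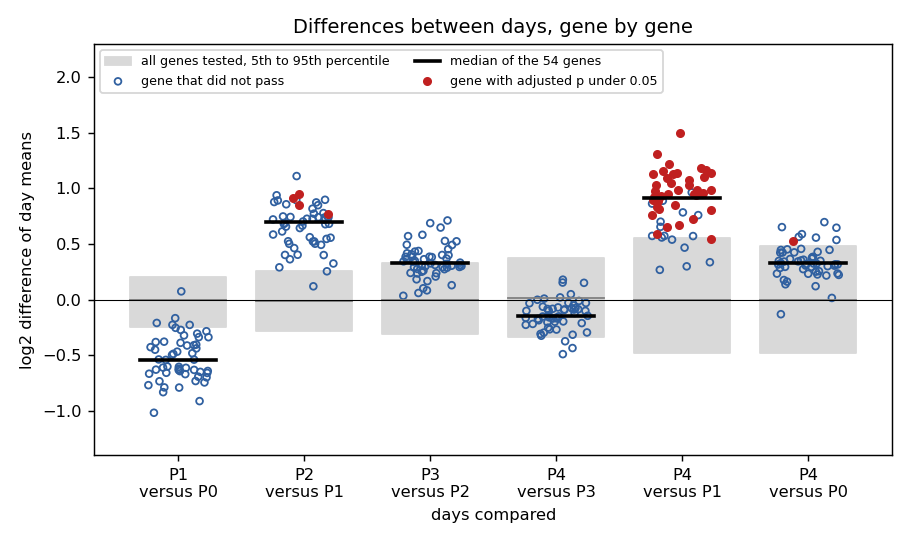
Log2 difference of day means (vertical axis) for each of the 54 genes in 6 comparisons of days (horizontal axis), with red points for adjusted p under 0.05, open blue points for genes that did not pass, black bars for the median of the 54 and grey boxes for the 5th to 95th percentile of all 11885 genes. The medians run from -0.54 (P1 versus P0) to 0.91 (P4 versus P1), and red points appear for 4, 38 and 1 genes in P2 versus P1, P4 versus P1 and P4 versus P0.

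Cyclins and kinases of mitotic entry were low at P1, and 5 of 7 measured genes rose from P1 to P4 (3.88% of all genes). Cdk1, the kinase that starts mitosis, had signals of 9.62, 9.83 and 9.56 at P0, 9.19, 9.11 and 9.57 at P1, 9.69, 9.92 and 9.90 at P2, 10.32, 10.25 and 9.98 at P3, and 9.88, 10.15 and 10.02 at P4. The P1 pools reached into the P0 range through replicate 3, but they lay below all later pools. Cdk1 was 1.65-fold higher at P4 than at P1 (log2 0.73, SE 0.15, adjusted p = 0.0072). Plk1, the polo-like kinase that activates Cdk1 and acts through to cytokinesis, read 8.24, 8.78 and 8.60 at P0, 7.63, 8.06 and 8.48 at P1, 8.10, 8.97 and 9.10 at P2, 8.78, 9.33 and 9.02 at P3, and 8.73, 9.62 and 9.24 at P4. Its first replicate was the lowest of every day, and the pools of P1 and P2 overlapped. It was 2.20-fold higher at P4 than at P1 (log2 1.14, SE 0.29, adjusted p = 0.0313), a call lost without P1 replicate 1 or 2 or P4 replicate 2 or 3 (adjusted p up to 0.148).

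Cdc25c, a phosphatase that removes the inhibitory phosphates of Cdk1, had the narrowest P1 group of these genes together with Kif14. Its signals were 8.20, 8.43 and 8.14 at P0, 7.59, 7.55 and 7.66 at P1, 8.33, 8.40 and 8.38 at P2, 8.62, 8.93 and 8.85 at P3, and 8.40, 8.61 and 8.59 at P4. The P1 pools were clear of all others, and those of P2 and P3 did not overlap. From P1 to P2 it rose 1.70-fold, but that call was lost without any P1 or P2 replicate (adjusted p up to 0.214). Cyclin genes Ccna2 and Ccnb2 rose from P1 to P4 as well, by 0.90 (SE 0.17) and 1.16 (SE 0.18), with adjusted p of 0.0047 and 0.0010. The other phosphatase gene Cdc25b (0.30, SE 0.14, adjusted p = 0.316) and the centrosome kinase gene Nek2 (0.65, SE 0.19, adjusted p = 0.0619) did not pass.

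Transcription regulators of the G2 and M genes were measured through Foxm1 and Mybl2, the gene of B-Myb, and neither passed in a comparison without a block. Their values in each pool are given because those values stood apart once seen. Foxm1 read 7.02, 8.07 and 8.06 at P0, 6.93, 7.71 and 7.82 at P1, 7.47, 8.38 and 8.38 at P2, 8.00, 8.65 and 9.06 at P3, and 7.62, 8.70 and 8.51 at P4. Foxm1 rose in the blocked fit from P1 to P2 (0.59, adjusted p = 0.0198), from P2 to P3 (0.49, adjusted p = 0.0440) and from P0 to P4 (0.56, adjusted p = 0.0034). Within each replicate number its low point was P1 and it was above its P0 value from P2 on, with the first replicate the lowest on every day. Mybl2 read 7.06, 7.31 and 7.45 at P0, 7.41, 7.18 and 7.45 at P1, 7.35, 7.45 and 7.60 at P2, 7.30, 7.42 and 9.43 at P3, and 7.42, 7.71 and 7.71 at P4. Its 14 other pools lay between 7.06 and 7.71, and its highest day rested on P3 replicate 3 alone. The same pool was the highest of all 15 in, among others, Cdca8 (9.50), Racgap1 (9.40), Incenp (9.11), Aurkb (9.70) and Foxm1. It stood alone on the third principal component of all genes, with 11.2% of the variance.

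**Figure D3:**
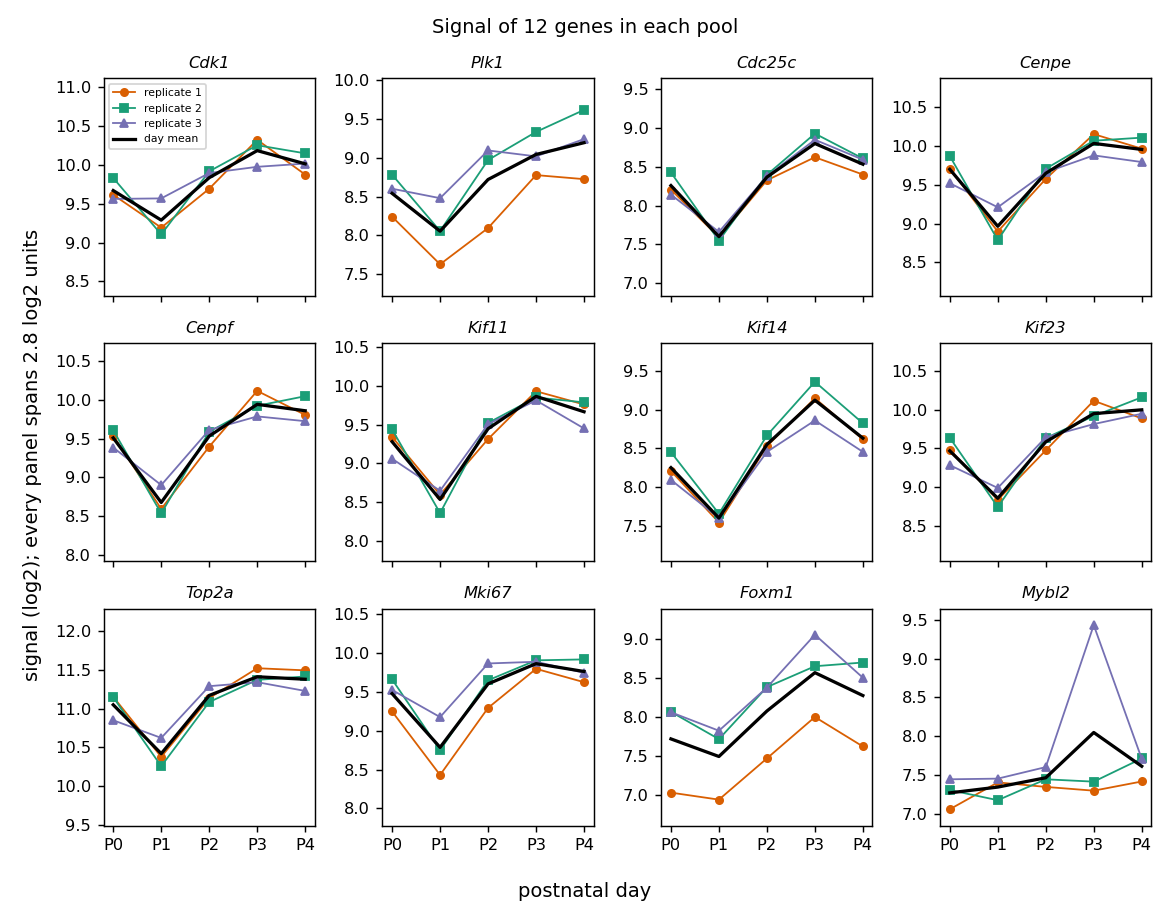
Signal (log2, vertical axes, each spanning the same 2.8 units) of 12 genes in every pool by postnatal day, with coloured lines for the replicate numbers and black lines for day means. Mybl2, with a single pool at 9.43, is the one panel whose lowest day mean is not at P1.

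Spindle checkpoint and anaphase genes followed the same course, and 5 of 8 rose from P1 to P4 (3.88% of all genes). These were Bub1 (0.95, SE 0.16) and Bub1b (0.95, SE 0.19), both of the checkpoint, its effector Mad2l1 (0.81, SE 0.14), its kinase Ttk (0.93, SE 0.18) and the securin gene Pttg1 (0.67, SE 0.11), with adjusted p between 0.0017 and 0.0073. Cdc20 and Ube2c, which drive the anaphase-promoting complex, and Espl1, the separase that cuts cohesin, did not pass. Their differences were 0.56 (SE 0.18), 0.89 (SE 0.38) and 0.47 (SE 0.21). For Ube2c the P4 pools of 8.18, 9.25 and 9.34 overlapped the P1 pools of 7.53, 8.18 and 8.39, through the first replicate. The 8 genes had a median difference of -0.50 from P0 to P1 and 0.71 from P1 to P2.

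Among centromere and kinetochore genes 4 of 6 rose from P1 to P4 (3.88% of all genes). Cenpf, a large protein of the kinetochore that appears in G2, read 9.54, 9.61 and 9.39 at P0, 8.59, 8.54 and 8.90 at P1, 9.40, 9.59 and 9.61 at P2, 10.12, 9.92 and 9.79 at P3, and 9.81, 10.05 and 9.73 at P4. P1 was clear of every other day, and P3 and P4 were above P0. It was 1.81-fold higher at P2 than at P1, a call lost without P0 replicate 1 or 3, P1 replicate 1 or 2, any P2 replicate, P3 replicate 2 or P4 replicate 1 (adjusted p up to 0.22), and 2.27-fold higher at P4 (log2 1.18, SE 0.14, adjusted p = 8.3e-05). Cenpe, a kinesin that carries chromosomes to the spindle equator, read 9.71, 9.87 and 9.52 at P0, 8.90, 8.79 and 9.21 at P1, 9.57, 9.71 and 9.66 at P2, 10.15, 10.07 and 9.88 at P3, and 9.96, 10.11 and 9.79 at P4. Its P1 pools were the lowest as well, and it was 1.99-fold higher at P4 than at P1 (adjusted p = 4.4e-04). Nuf2 of the Ndc80 complex and the centromere histone gene Cenpa rose by 1.11 (SE 0.24) and 0.80 (SE 0.17). The partners of Nuf2 in that complex did not pass, Ndc80 at 0.57 (SE 0.17, adjusted p = 0.0731) and Spc25 at 0.34 (SE 0.18, adjusted p = 0.418). Spc25 was the gene whose P4 mean was below its P0 mean (-0.13).

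Of the chromosomal passenger complex, which corrects wrong attachments and then moves to the midzone, Birc5 (survivin), Cdca8 (borealin) and Incenp rose from P1 to P4, by 0.89 (SE 0.24), 1.13 (SE 0.27) and 0.84 (SE 0.21). The kinase subunit gene Aurkb, at 0.57 (SE 0.21, adjusted p = 0.165), did not pass. Its P1 pools, 8.35, 8.48 and 8.61, were nonetheless all below its P4 pools of 8.73, 9.17 and 9.27.

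Spindle and kinesin genes formed the largest group, and 12 of 14 rose from P1 to P4 (3.88% of all genes). Kif11, the motor that pushes the spindle poles apart, read 9.34, 9.44 and 9.06 at P0, 8.60, 8.36 and 8.65 at P1, 9.31, 9.52 and 9.50 at P2, 9.93, 9.85 and 9.81 at P3, and 9.76, 9.79 and 9.45 at P4. Its pools did not overlap in P1 versus P0, P2 versus P1, P3 versus P2 or P4 versus P3. It was 1.88-fold higher at P2 than at P1, a call lost without P1 replicate 1 or 2 or any P2 replicate (adjusted p up to 0.214), and 2.19-fold higher at P4 (log2 1.13, SE 0.14, adjusted p = 1.1e-04). The hyaluronan-mediated motility receptor gene Hmmr, whose product binds spindle microtubules, rose most in this group, by 1.31 (SE 0.25, adjusted p = 0.0041). Nusap1 and Tpx2, which bundle or nucleate spindle microtubules, and the centrosome kinase gene Aurka rose by 1.22 (SE 0.29), 1.09 (SE 0.27) and 1.08 (SE 0.28). Aspm, a protein of spindle poles, rose by 0.98 (SE 0.16) and Plk4, the kinase that starts centriole duplication, by 0.66 (SE 0.14).

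The chromosome-arm and spindle kinesins Kif4, Kif15, Kif18a, Kif20b and Kif22 rose by between 0.77 and 1.03. Kif2c, which removes tubulin at centromeres, differed by 0.97 and Kif18b by 0.70, with SEs of 0.31 and 0.37, and neither passed (adjusted p = 0.0887 and 0.414). Both had a low first replicate. Kif18b read 6.66 in P2 replicate 1 against 8.04 and 7.92 in the other P2 pools. Over the 14 genes the median was -0.64 from P0 to P1, 0.73 from P1 to P2 and 0.38 from P2 to P3.

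In cytokinesis 5 of 7 genes rose from P1 to P4 (3.88% of all genes). The median difference of the 7, 1.05, was the largest of the 8 groups of roles. Kif23, the motor of the centralspindlin complex, read 9.48, 9.64 and 9.28 at P0, 8.84, 8.74 and 8.99 at P1, 9.47, 9.63 and 9.64 at P2, 10.11, 9.92 and 9.81 at P3, and 9.89, 10.16 and 9.95 at P4. All pools of P3 and P4 were above all pools of P0. It was 2.20-fold higher at P4 than at P1 (log2 1.14, SE 0.13, adjusted p = 7.6e-05). Kif14, which recruits citron kinase to the midbody, read 8.21, 8.45 and 8.09 at P0, 7.55, 7.66 and 7.60 at P1, 8.53, 8.67 and 8.46 at P2, 9.15, 9.36 and 8.86 at P3, and 8.62, 8.82 and 8.46 at P4. Its P3 pools were above all pools of the other days. The call from P1 to P2 (1.93-fold) was lost without any P1 or P2 replicate (adjusted p up to 0.214), and it was 2.04-fold higher at P4 than at P1 (adjusted p = 4.4e-04).

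Prc1, which bundles microtubules of the midzone, rose by 1.50 (SE 0.20, adjusted p = 2.2e-04) between P1 and P4, or 2.83-fold. The exchange factor gene Ect2, which activates RhoA there, rose by 1.17 (SE 0.16) and Anln, an actin ring scaffold, by 1.05 (SE 0.23). The second centralspindlin subunit gene Racgap1, at 0.86 (SE 0.29, adjusted p = 0.115), and the midzone kinesin gene Kif20a, at 0.57 (SE 0.25, adjusted p = 0.261), did not pass. The pools of Racgap1 at P4, 7.99, 8.86 and 8.75, overlapped those at P1, 7.38, 7.61 and 8.02.

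**Figure D4:**
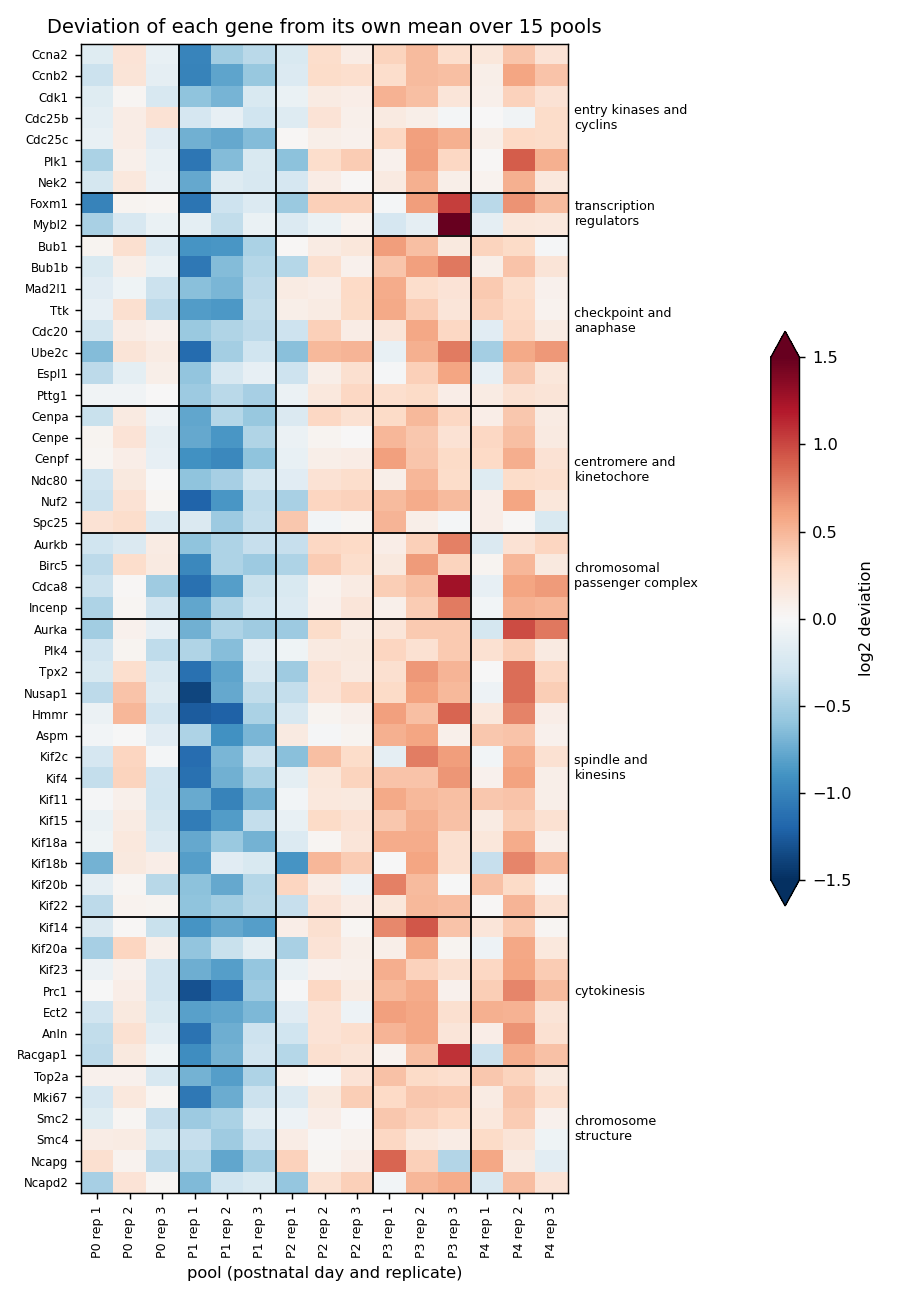
Deviation of each of the 54 genes (rows, grouped by role) from its own mean over 15 pools, in each pool (columns, by day and replicate), on a log2 colour scale from blue (below the mean) to red (above it). The P1 columns are blue throughout, with 0 genes above their own mean, and P3 replicate 3 has the single darkest red cell, that of Mybl2.

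Genes of chromosome structure and the marker of dividing cells had the same low day. Of these 6, 4 rose from P1 to P4 (3.88% of all genes). Top2a, the topoisomerase that untangles sister chromatids, read 11.15, 11.15 and 10.85 at P0, 10.38, 10.26 and 10.62 at P1, 11.14, 11.08 and 11.29 at P2, 11.52, 11.37 and 11.34 at P3, and 11.49, 11.41 and 11.23 at P4. P1 was again clear of all other days. It was 1.94-fold higher at P4 than at P1 (log2 0.96, SE 0.13, adjusted p = 3.3e-04), and at P2 it just missed the threshold (log2 0.75, SE 0.13, adjusted p = 0.0516), which it passed without P3 replicate 3 (adjusted p = 0.0486) and with the replicate number as a block (adjusted p = 0.0107). Mki67, which coats mitotic chromosomes and is the usual marker of dividing cells, read 9.25, 9.66 and 9.53 at P0, 8.43, 8.75 and 9.18 at P1, 9.30, 9.65 and 9.87 at P2, 9.80, 9.91 and 9.89 at P3, and 9.63, 9.92 and 9.75 at P4. Its P1 pools were below all others, replicate 3 by the least. It was 1.97-fold higher at P4 than at P1 (log2 0.98, SE 0.19, adjusted p = 0.0048).

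The condensin core genes Smc2 and Smc4 rose by 0.59 (SE 0.14) and 0.54 (SE 0.13). The condensin subunit genes Ncapg, at 0.76 (SE 0.28, adjusted p = 0.158), and Ncapd2, at 0.54 (SE 0.27, adjusted p = 0.368), did not pass. In Ncapg the P3 pools were spread from 8.99 in replicate 3 to 10.30 in replicate 1.

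The promoter windows were set beside these differences. Of the 46 measured genes with a window, 25 of the 36 with a CHR rose from P1 to P4. Of the 10 without one, 8 did, beside 3.88% of all genes tested. The median differences were 0.96 and 0.85. From P0 to P1 the medians were -0.57 and -0.55. The difference between those with and without the motif was not tested.

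Other genes of the cell cycle are described from 3 lists, also chosen with earlier results of these data known. Of 95 other mitosis genes 92 were tested, and 0 passed from P0 to P1 in limma (14 at an unadjusted p under 0.05, beside 2% of all genes, 74 of 92 differences negative, median -0.17) and 0 from P1 to P2 (35 unadjusted, beside 3.82% of all genes, 77 positive, median 0.29). From P1 to P4, 18 rose (3.88% of all genes) and none fell, with a median of 0.36 where the 54 genes had 0.91. They were led by the kinetochore scaffold gene Knl1 (0.91, SE 0.14, adjusted p = 9.4e-04), the Cdk subunit gene Cks2 (0.86, SE 0.14), the protector of centromere cohesion Sgo2a (0.78, SE 0.13) and the spindle protein gene Tacc3 (0.60, SE 0.10). Against P0, Gtse1 and Mis12 rose at P4, 2 of 92 beside 3.18% of all genes, which is no more than the background.

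Genes of S phase and replication moved less. Of 40 listed 39 were tested, and none passed from P0 to P1 in limma (1 at an unadjusted p under 0.05, beside 2% of all genes), and the median was -0.06. From P1 to P2 none passed either (10 unadjusted, beside 3.82% of all genes), 38 of the 39 differences were positive and the median was 0.27. From P1 to P4, 3 of 39 rose (3.88% of all genes), the ribonucleotide reductase subunit gene Rrm2 (0.74, SE 0.14, adjusted p = 0.0046), the replication factor gene Mcm10 (0.50, SE 0.13) and the thymidylate synthase gene Tyms (0.63, SE 0.17). The score of this list, computed as for the mitosis genes, was -0.10 ± 0.15 at P0 and -0.19 ± 0.17 at P1, within the spread of the pools, and 0.10 ± 0.18 at P2.

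Of 19 genes of the D cyclins, their kinases, the CDK inhibitors and the pocket proteins 17 were tested, and none passed from P0 to P1 in limma (0 at an unadjusted p under 0.05), and 2 of 17 rose from P1 to P4 (3.88% of all genes). Ccnd1, a cyclin of G1 that is also a marker of the renal vesicle, rose by 1.97 (SE 0.42, adjusted p = 0.0102) and its kinase gene Cdk6 by 1.22 (SE 0.19, adjusted p = 0.0011). Ccnd1 showed no low point at P1. It read 8.77, 9.96 and 9.85 at P0 and 8.84, 9.99 and 10.03 at P1, and its pools lay between 10.99 and 12.06 at P3. The differences between the lists were not tested.

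**Figure D5:**
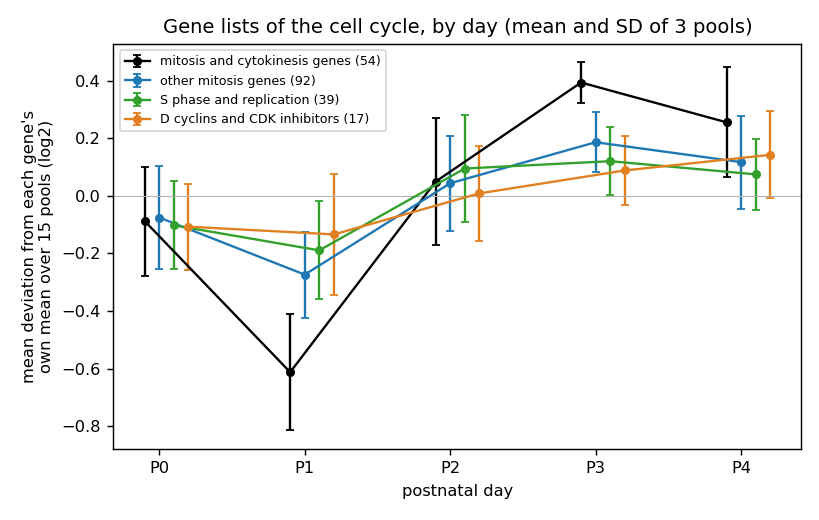
Mean deviation of each list's genes from their own means over 15 pools (log2, vertical axis) by postnatal day, where points are means of 3 pools and bars their SD, for 54 mitosis and cytokinesis genes (black), 92 other mitosis genes (blue), 39 S phase and replication genes (green) and 17 genes of D cyclins and CDK inhibitors (orange). The black line reaches -0.61 at P1, where the other lists stand at -0.27, -0.19 and -0.13.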

How the data were processed

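Affymetrix arrays profiled amplified RNA of 15 pools of sorted cells. The deposited values are log2 signals, which per the labels the authors made with Affymetrix Expression Console. The sources used here do not give its version, summary method or background correction. The table held 35557 probe sets, of which 21789 name 1 gene symbol, 1621 several and 12147 none in the platform annotation used here. The probe set with the highest mean over 15 arrays stood for each of 19938 genes (999 had several). Genes above 6.86, the median of all values, in at least 3 arrays were kept (11885). Kif14 and Top2a have a second, dimmer probe set, with means of 4.46 and 5.59, below the filter level. From P0 to P4 the day means of that of Kif14 were 4.33, 4.42, 4.51, 4.59 and 4.45, with no low point at P1. Those of Top2a were 5.80, 5.47, 5.61, 5.81 and 5.24, lowest at P4. No further normalization was applied.

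Day means were fitted over all 15 arrays in limma (version 3.58.1, R 4.3.3) with eBayes, two-sided, and adjusted by Benjamini-Hochberg with a threshold of 0.05. The number of arrays limits the precision. The fit was tested on simulated data, where 72 of 100 genes changed by 1 (log2) and 10 of 100 changed by 0.5 were recovered in P1 versus P0 with 11885 genes. The simulated noise was independent between genes and arrays, unlike that of the real pools. Samples were grouped by their labelled day. Replicate numbers come from the titles. Same-numbered samples deviated together from their day means, with a correlation over 0.1 in 29 of 30 pairs. The exception was replicate 3 of P1 and P4 (0.078), so the numbers were taken as pairs in every comparison but P4 versus P1. Samples of different numbers were not compared in this way, so the pairing is an assumption. The first replicates lay apart on every day. Deviations of the other pools from their day means then tend to correlate across days, whatever their number. The share of pairs over 0.1 therefore cannot show that same-numbered pools belong together. Correlations were 0.58 to 0.80 in replicate 1, but 0.14 between P0 and P1 in replicates 2 and 3. Over all genes kept, P0 replicate 2 was most like P1 replicate 3, and P0 replicate 3 most like P1 replicate 2. Alternatives were quantile normalization, centring, other filters, the mean of probe sets, blocks, subsets of samples and trend and robust moderation.

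The members and lists were chosen with earlier results of these data known. Values in each pool are given for Cdk1, Plk1, Top2a and Mki67 and for the 4 genes with the smallest p in P1 versus P0, P2 versus P1 and P4 versus P1, and the 3 with the smallest p are named where none passed. Up to 4 genes of each other list were named by smallest p. Promoter sequences are from RefSeq (GRCm38.p6), and 8 of the 55 genes had no entry in that table.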

Additional observations from a re-analysis of the deposited data

How the results depend on the processing

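The median differences of the 54 genes kept their sign in all 144 recomputed values and moved by less than the spread between pools of a day (0.18). In P4 versus P3 that spread exceeds the median itself, which ran from -0.24 to -0.07 when 1 pool was left out. In P3 versus P2 the median ran from 0.19 to 0.42. Many of the 144 values could not differ from the first fit. Blocks, other filters and fits of the 2 days alone left the medians as they were, as did leaving out pools of other days. Counts of genes that passed depended on the setting. With the replicate number as a block, they were 7 in P1 versus P0, 33 in P2 versus P1, 3 in P3 versus P2, 1 in P4 versus P3 and 12 in P4 versus P0, against 0, 4, 0, 0 and 1. Over all genes the block gave 0.16%, 0.766%, 0.799%, 1.25% and 5.69% in the same directions. For P4 versus P1, where the numbers were not taken as pairs, 7.14% of all genes rose with the block, against 3.88% without it. Of the 54 genes, the block gave 51 in place of 38, all 38 among them. Those gained were Nek2, Foxm1, Cdc20, Ube2c, Espl1, Ndc80, Aurkb, Kif2c, Kif18b, Kif20a, Racgap1, Ncapg and Ncapd2, with adjusted p up to 0.0109. With the first replicates of all days against the others as a block, the counts were 6, 31, 3, 0, 51 and 10 for P1 versus P0, P2 versus P1, P3 versus P2, P4 versus P3, P4 versus P1 and P4 versus P0. Of all genes, 0.16%, 0.867%, 1.23%, 3.35%, 12.5% and 10.5% then passed in either direction. Quantile normalization gave 2 in P1 versus P0, 19 in P2 versus P1 and 7 in P4 versus P0. Of all genes, 0.0253%, 0.388% and 6.63% then passed in either direction. Centring arrays on their medians gave 0 in P2 versus P1 and in P4 versus P0, as did fitting only the 2 days compared. Trend and robust moderation gave 7 in P2 versus P1 (0.126% of all genes in either direction), and replicates 2 and 3 alone gave 0. Leaving out 1 pool in turn gave 0 to 10 in P2 versus P1, 23 to 39 in P4 versus P1 and 0 to 3 in P4 versus P0, and 0 in each of the other 3 comparisons. Why these counts differ was not tested. Over 10 named genes in 3 comparisons, 675 of 747 recomputed values kept their call, 44 lost it, 28 gained one and 0 changed sign. In the settings that leave the day means unchanged, only the call could move and not the sign. P4 versus P1 passed between 34 and 51 genes under all settings that kept every pool. In those settings 3.63% to 13.1% of all genes passed in either direction. In the simulated data, changes of 0.5 (log2) at 3 pools a day were mostly missed. Those data lacked the deviation that same-numbered pools share, so their recovery may not hold for the real arrays.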
